A study of Mus musculus with 8 samples.

Results

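The Obox genes are a family of homeobox genes of the oocyte and early embryo, and 7 rows of the deposited table were taken as members by their gene symbol: Obox1, Obox2, Obox5, Obox7, Obox3, Obox6 and the pseudogene Obox4-ps1. They are 7 of the 55487 genes in the table. RNA was sequenced from mouse 2-cell embryos in 8 libraries of 5 pooled embryos each. The 4 control libraries came from wild-type zygotes injected with CasRx, a nuclease that cuts RNA, and no guide RNA is named for them. The 4 knockdown-labelled libraries came from zygotes that received CasRx and a guide against Polq, the gene of DNA polymerase theta. Injection was 20 h after the ovulation-inducing dose of chorionic gonadotropin, RNA was taken 10 h later, and neither strain nor age of the mice is given in the labels. The genotype label reads WT for the controls and polq knockdown for the others.

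Obox proteins are transcription factors with a homeodomain, a DNA-binding fold, and they arose in rodents by repeated duplication of a relative of the photoreceptor gene Crx. Obox1, Obox2, Obox5 and Obox7 are known as maternal genes, whose RNA is made in the growing oocyte and stored in the egg. Obox3 and the Obox4 copies are known as zygotic genes, switched on as the embryonic genome wakes, and Obox6 is also known from the cleaving embryo. Mouse embryos that lack both the maternal and the zygotic proteins are known to stall soon after the first cleavage with failed genome activation.

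The libraries differed in depth. Totals ran from 33311665 to 43748621 counts in the controls and from 4726159 to 33650050 in the knockdown-labelled libraries, where replicates 1, 2 and 3 were the shallow ones. All 10 listed markers of the 2-cell embryo had counts in every library. Zp3, Gdf9, Ooep, Nlrp5 and Dppa3 among them are also on the list of maternal oocyte transcripts. Their counts alone do not tell the 2-cell stage from the egg. Of 10 markers of cumulus and granulosa cells, 5 were at 0 in all libraries (Fshr, Foxl2, Inhba, Has2 and Ptx3). Amhr2 and Kitl had counts in all 8 libraries, at 0.91 to 7.48 and 0.157 to 16.7 counts per 1000000 (CPM, with TMM scaling). Tnfaip6 had counts in 6 libraries (up to 16.2 CPM), Cyp19a1 in 4 (up to 5.23 CPM) and Amh in 1. The 10 together summed to 10.3 to 31.2 CPM in the controls and 9.23 to 19.2 in the other group. Sperm markers were at 0 in every library except Prm2, which reached 7.34 CPM. Of 8 markers of later stages, Cdx2 and Krt8 were at 0 throughout. Fgf4 (15.9 to 81.8 CPM) and Nanog (0.693 to 3.15 CPM) had counts in all 8 libraries. Gata6 had counts in 5 libraries (up to 7.29 CPM), Sox2 in 4 (up to 3.73 CPM), Krt18 in 2 and Eomes in 1. The list summed to at most 86.7 CPM, most of it from Fgf4. Polq itself averaged 39.3 ± 7.65 CPM in the controls and 31.5 ± 11.03 in the knockdown-labelled libraries (SD, n = 4 each), and the groups overlapped (log2 fold change -0.32, SE 0.34, edgeR adjusted p = 1.0). Libraries are therefore called knockdown-labelled.

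All 7 members lie on chromosome 7 (GRCm38), between 14517971 and 15839678, a stretch of 1322 kilobases. Their gene spans, from the GENCODE M21 annotation, are 15388948 to 15556866 for Obox1, 15388721 to 15398545 for Obox2, 15750131 to 15759800 for Obox5 and 14659496 to 14665996 for Obox7, all on the plus strand. Obox3 lies from 15479825 to 15639902, Obox6 from 15833241 to 15839678 and Obox4-ps1 from 14517971 to 14518670, all on the minus strand. The first 6 are annotated as protein-coding and Obox4-ps1 as an unprocessed pseudogene. The spans of Obox1 and Obox3 run into each other on opposite strands, although no exons of this pair overlap. Obox1 and Obox2 overlap on the same strand and have 59 exonic bases in common.

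The members also resemble each other upstream of their start sites, and the sequences shown are the stretches that 4 of them share. RefSeq promoters (GRCm38.p6, 250 bases before to 50 bases after the start) were found for 5 members, Obox1, Obox2, Obox3, Obox5 and Obox7. A run of 25 bases was identical in Obox1, Obox3, Obox5 and Obox7, where it begins 98, 109, 110 and 84 bases before the start. The run is given first, in capitals because every base is shared, followed for each gene by the 30 bases that end with the heptamer TATATAA, in capitals, a sequence of the TATA-box kind.
Shared run: GTGAGAATTAAGGATTTGAATATTG
Obox1, chr7:15547215-15547244, plus strand: attgaattccaagtttgcagagaTATATAA
Obox5, chr7:15750316-15750345, plus strand: attgaattccaagtttgcagagaTATATAA
Obox7, chr7:14659680-14659709, plus strand: attgaattccaagtttgcagagaTATATAA
Obox3, chr7:15639801-15639830, minus strand: attggattccaagtttggagagaTATATAA

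From the first base of the run to the last base of the heptamer these promoters span 86 bases in each gene. Over those 86 bases Obox5 and Obox7 were identical, Obox1 differed from each of them at 1 base, and Obox3 differed from Obox5 and from Obox7 at 6 bases and from Obox1 at 7. Of all 32851 promoter windows of the same length, 5 held the 25-base run on either strand (0.0152%), and all 5 were Obox genes, Obox2 being the fifth. In Obox2 the run begins 1 base before the RefSeq start, and the window ends 26 bases after the run, so that the place of the heptamer lies outside it. The heptamer was found in 3.24% of all windows on either strand. It begins 31 and 30 bases before the start of Obox5 and Obox3, 19 before that of Obox1 and 5 before that of Obox7. In each of the 4 genes, 1 longer GENCODE transcript has the 86 bases inside an exon. TAATCC, a core sequence bound by homeodomains of the Crx and Otx kind, was searched on both strands and matched in the Obox3 window only among the 5, 168 bases before its start, against 7.06% of all windows. The motifs were chosen after the sequences had been seen, and a match in letters is no evidence of binding.

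Reads from genes this alike can be hard to assign. At a window length of 100 bases, 42.3% of the windows in Obox1 transcripts also occurred in Obox2 transcripts, and 47.2% of those of Obox2 in Obox1. The share present in any other gene was 8.89% for Obox3, most of it in the pseudogene Obox3-ps3, 2.34% for Obox7 and 1.75% for Obox5, and no such window was found for Obox6 or Obox4-ps1. With windows of 150 bases the shares were 34.1% for Obox1, 38.2% for Obox2, 4.54% for Obox3 and 0 for the others. With 50 bases they were 65.1% for Obox2, 57.4% for Obox1, 21.1% for Obox7, 20.2% for Obox3 and 18.1% for Obox5. They were 5.02% for Obox6 and 0 for Obox4-ps1 at that length. No source used here gives the read length. The authors' counting divides reads between genes by estimation, yet only 3 of the 56 values of the members were not whole numbers. Of these, 0 belonged to Obox1 and 1 to Obox2, and rounding changed no value of a member by more than 0.21. Because of the shared sequence the separate levels of Obox1 and Obox2 are uncertain, although few values showed a division of reads. If reads were near 50 bases, the levels of Obox3, Obox5 and Obox7 would be less certain too. Whether the order of Obox1 and Obox2 depends on how shared reads were assigned was not tested.

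**Figure D1:**
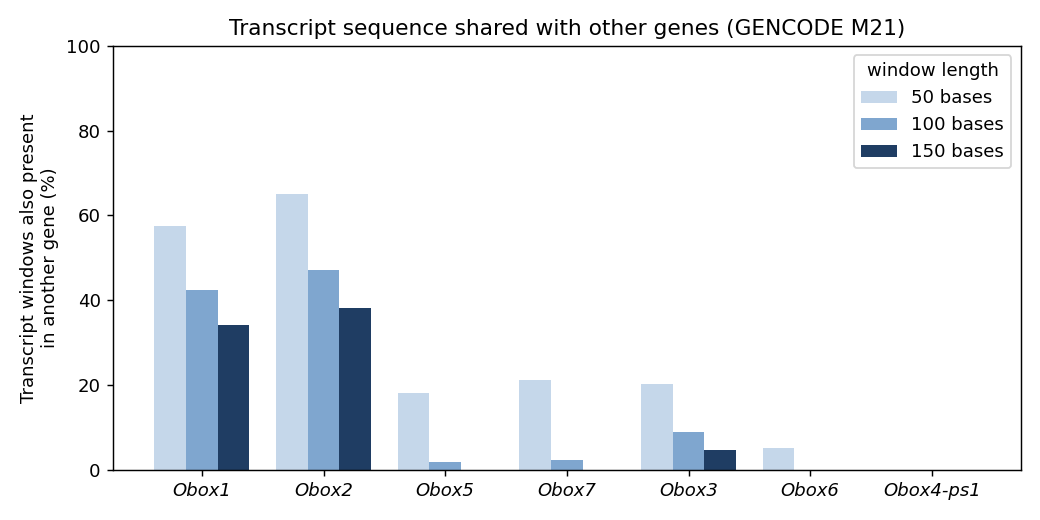
Share of the windows of 50, 100 or 150 bases in each member's transcripts (vertical axis, %) that also occur in transcripts of another gene in GENCODE M21, either strand. Obox1 and Obox2 stand highest at every length, at 42.3% and 47.2% with 100 bases, while Obox6 and Obox4-ps1 share none at 100 bases.

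Taken as a family, Obox RNA was abundant in every library. The 7 members summed to 86679, 125963, 162431 and 136559 counts in control replicates 1 to 4 and to 21647, 30284, 24743 and 104565 counts in knockdown-labelled replicates 1 to 4. These sums were between 0.260% and 0.458% of all counts in a library. On the scaled level they were 2650, 3968, 3715 and 3178 CPM in the controls, a mean of 3378 ± 586.5 (SD, n = 4), and 4293, 3679, 2859 and 3277 CPM in the knockdown-labelled libraries, a mean of 3527 ± 611 (SD, n = 4). The highest sum was that of knockdown-labelled replicate 1 and the lowest that of control replicate 1, and the other 3 knockdown-labelled libraries lay inside the control range. The log2 ratio of the means was 0.062, with a standard error of 0.177 from the spread between libraries. It was negative without control replicate 1 (-0.031) and without knockdown-labelled replicate 1 (-0.046). In pools of whole embryos, less RNA in each cell and fewer cells that hold the RNA cannot be told apart.

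The comparison between the groups asks whether the Polq guide changed Obox RNA. No member passed the test for a difference. Of the 7 members, 6 passed the filter on low counts, and edgeR's quasi-likelihood test called 0 of these 6 at an adjusted p under 0.05, beside 0 of 13146 genes tested, or 0%. At an unadjusted p under 0.05 it gave 0 of the 6 members and 369 genes, or 2.81% of those tested. DESeq2 called 0 of the 6 members and 20 genes (0.152%), and limma-voom called 0 of each. The edgeR fit put the common biological coefficient of variation, the spread between libraries shared over genes, at 0.987. With that spread a lack of calls does not show a lack of change. The 4 libraries of one group lay clear of the 4 of the other in 0 of the 6 members, against 2.98% of all genes tested. The fitted log2 fold changes, knockdown-labelled minus control, were positive in 3 members and negative in 3, with a median of -0.06, and the median over all genes tested was -0.05. The submitters describe the pools as biological replicates, and p-values measure the spread between pools.

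Obox5, a maternal member, was the most abundant of the family. Its levels were 1106, 2265, 1941 and 1583 CPM in control replicates 1 to 4 (mean 1724 ± 497, SD, n = 4) and 2305, 1644, 1353 and 1614 CPM in knockdown-labelled replicates 1 to 4 (1729 ± 406). Control replicate 1 was the lowest library and knockdown-labelled replicate 1 the highest, and the other 3 knockdown-labelled libraries fell within the controls. The fit gave a log2 fold change of 0.004 (SE 0.236) and a 95% interval from 69.6% to 144% of the control level (edgeR, adjusted p = 1.0). By mean CPM it ranked 51 among the 13146 genes tested.

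Obox1, its maternal relative, was at 118, 333, 237 and 150 CPM in control replicates 1 to 4 (210 ± 96.5, SD, n = 4) and at 285, 180, 125 and 179 CPM in knockdown-labelled replicates 1 to 4 (192 ± 67.0). All 4 knockdown-labelled libraries lay inside the control range. The controls alone spanned from 118 to 333 CPM, with control replicate 2 the highest library, as it was among the controls for Obox5. The log2 fold change was -0.12 (SE 0.35) with an interval from 53.3% to 158% of control (edgeR, adjusted p = 1.0).

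Obox2 was at 141, 143, 88.3 and 114 CPM in control replicates 1 to 4 (122 ± 25.9, SD, n = 4) and at 165, 72.9, 40.7 and 103 CPM in knockdown-labelled replicates 1 to 4 (95.4 ± 53.0). Of the knockdown-labelled libraries 1 lay above the controls, 2 below and 1 among them, so that this group was the more scattered. The log2 fold change was -0.35 (SE 0.38), the interval ran from 43.4% to 142% of control, and the adjusted p was 1.0 in edgeR. The ratio of Obox1 to Obox2 counts was 0.836 in control replicate 1 and between 1.32 and 3.07 in the other 7 libraries.

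Obox7, the least abundant member with counts, was at 45.3, 94.2, 54.5 and 84.0 CPM in control replicates 1 to 4 (69.5 ± 23.3, SD, n = 4). In knockdown-labelled replicates 1 to 4 it was at 83.5, 59.2, 63.2 and 45.2 CPM (62.8 ± 15.8). Both groups covered about the same span, and the lowest knockdown-labelled library was barely under the lowest control. The log2 fold change was -0.15 (SE 0.30), with an interval from 56.5% to 144% of control (edgeR, adjusted p = 1.0). Summed, the 4 maternal members were at 2124 ± 603 CPM in controls against 2079 ± 535 CPM under the knockdown label (SD, n = 4 each).

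Obox3, the zygotic member, was steadier among the controls, at 526.5, 509, 564 and 470 CPM in replicates 1 to 4 (517 ± 39.2, SD, n = 4). It was at 711, 761, 490 and 539.5 CPM in knockdown-labelled replicates 1 to 4 (625.5 ± 131). Knockdown-labelled replicates 1 and 2 lay above all controls, and replicates 3 and 4 lay among them. Its log2 fold change of 0.27 (SE 0.17) was the farthest above 0 in the family, with an interval from 92.7% to 158% of control, and it did not pass (edgeR, adjusted p = 1.0). Replicates 1, 2 and 3 are the shallow libraries of this group. With every library thinned to the smallest total the log2 fold change was 0.330. It was 0.068 with these 3 libraries left out (added after seeing the data), which leaves knockdown-labelled replicate 4 alone in its group.

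Obox4-ps1, named after the zygotic gene Obox4, was listed at 0 in all 8 libraries. A count of 0 allows up to 3 counts, which is 0.0686 to 0.0945 CPM in the controls and knockdown-labelled replicate 4 and 0.347 to 0.595 CPM in the 3 shallow libraries. No fold can be given. Of the 37 other rows named as Obox4 pseudogenes, leaving aside Obox4-ps35, 25 were also at 0 throughout, and none exceeded 165 counts in a library. Reads that fit many places can be lost in mapping, and no source used here gives the mapping limits. For Obox4-ps1 itself, no window of 50, 100 or 150 bases occurred in annotated transcripts of another gene. Whether reads of these rows were lost was not tested.

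Obox6 had the narrowest interval of the family. Its levels were 713, 624, 830 and 777 CPM in control replicates 1 to 4 (736 ± 88.7, SD, n = 4) and 743, 962, 787 and 796 CPM in knockdown-labelled replicates 1 to 4 (822 ± 96.3). Knockdown-labelled replicate 2 lay above all controls and the others among them. The log2 fold change was 0.16 (SE 0.15), and an Obox6 level below 89.1% or above 140% of control lay outside the 95% interval (edgeR, adjusted p = 1.0).

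**Figure D2:**
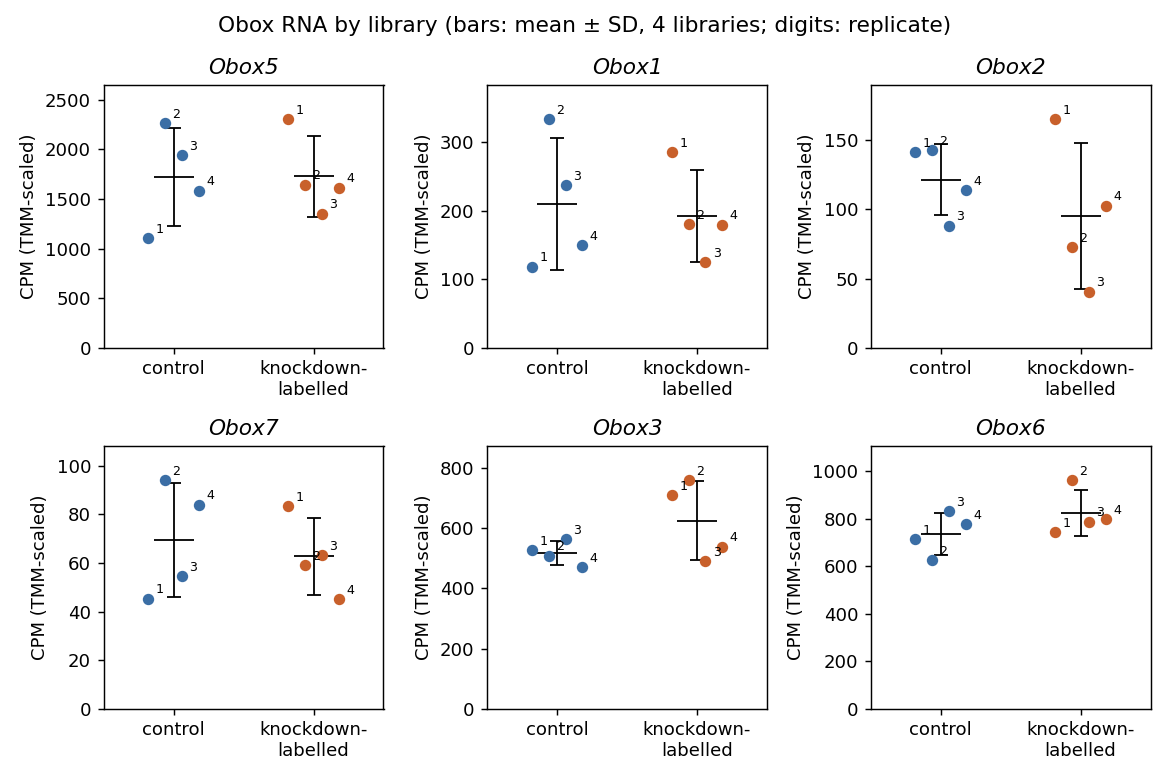
Scaled level (CPM, linear axes from 0) of the 6 members with counts in each of the 8 libraries; digits give the replicate, and the black bars are the mean and SD of 4 libraries. The groups overlap in every panel, and relative to their mean the controls are tightest for Obox3, at 470 to 564 CPM (coefficient of variation 7.58%).

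**Figure D3:**
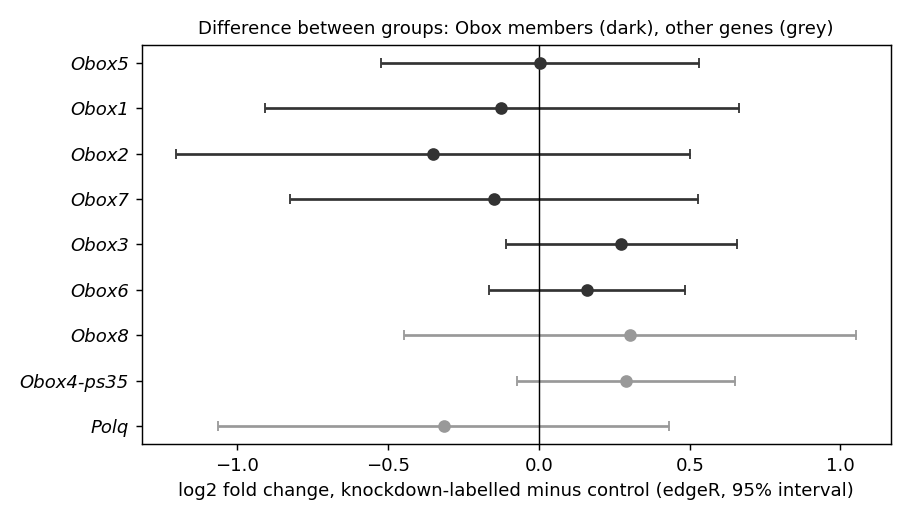
Log2 fold change (knockdown-labelled minus control) from edgeR, for the 6 members tested (dark) and for Obox8, Obox4-ps35 and Polq (grey). The 95% intervals are derived from the F statistic of the test. All intervals include 0, and that of Obox6 is the narrowest among the members, from -0.17 to 0.49.

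Leaving out control replicate 2 turned the signs of the Obox1 and Obox7 log2 fold changes (0.196 and 0.035), and leaving out knockdown-labelled replicate 3 also turned that of Obox1 (0.035). That of Obox5 turned without control replicate 1 or 4 or knockdown-labelled replicate 1 (-0.152, -0.036 and -0.165). The log2 fold change of Obox2 was -0.750 without knockdown-labelled replicate 1 and -0.101 without knockdown-labelled replicate 3, and that of Obox6 was 0.084 without knockdown-labelled replicate 2.

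Members of different length are compared per kilobase of merged exons. Per kilobase, Obox5 was at 807 ± 233 CPM in the controls and 809 ± 190 in the knockdown-labelled libraries, followed by Obox6 at 548 ± 66.0 and 612 ± 71.6 and Obox3 at 162 ± 12.3 and 196 ± 41.0 (SD, n = 4 each). Obox1 came next at 110 ± 50.8 and 101.3 ± 35.3 CPM per kilobase, then Obox2 at 73.8 ± 15.7 and 57.9 ± 32.2, and Obox7 at 43.4 ± 14.6 and 39.2 ± 9.88. Obox6 exceeded Obox3 in all 8 libraries, by 2.48 to 3.93 times, and their ranges did not overlap. The other neighbours in this order overlapped, each pair being in this order in 7 of 8 libraries. Among 12788 tested genes with a length, Obox5 ranked 69, Obox6 ranked 100 and Obox3 ranked 332 per kilobase, with Obox1, Obox2 and Obox7 at 504, 752 and 1118.

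The make-up of the family sum varied between libraries of the same group. Obox5 held 41.7% of the family's counts in control replicate 1 and 57.1% in control replicate 2, while its share ran from 44.7% to 53.7% under the knockdown label. The 4 maternal members together held 62.0% ± 7.49 in the controls and 58.5% ± 5.70 in the knockdown-labelled libraries (SD, n = 4 each). Obox3 held 15.7% ± 2.99 and 17.7% ± 2.00 in the same order, and Obox6 22.4% ± 4.80 and 23.8% ± 4.54. For each count of Obox3 there were 2.57 to 5.57 counts of the maternal members, the lowest in knockdown-labelled replicate 2 and the highest in control replicate 2.

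**Figure D4:**
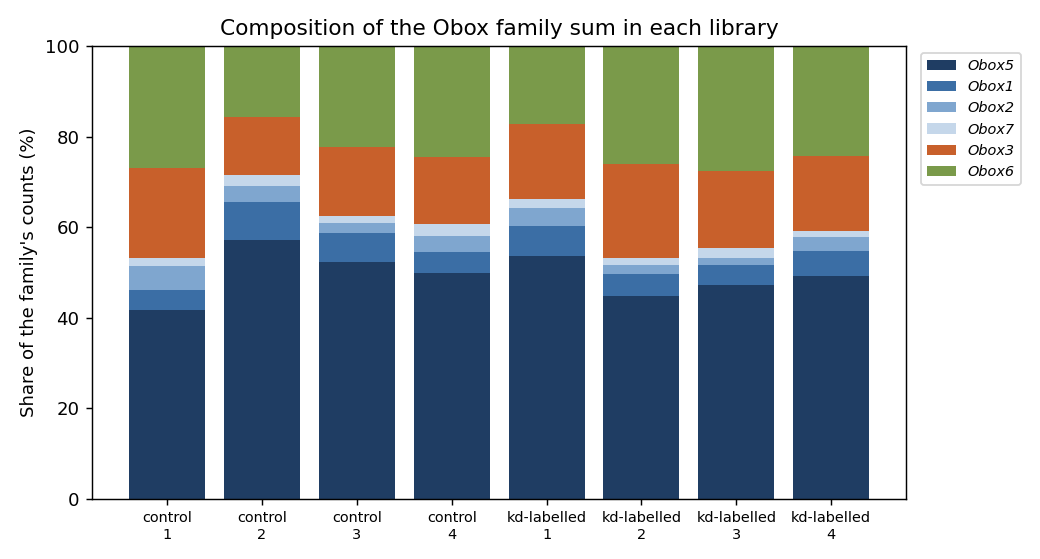
Share of the family's counts (vertical axis, %) held by each member in each of the 8 libraries; blue shades are the maternal members, orange is Obox3 and green is Obox6. The maternal share runs from 53.2% in control replicate 1 and knockdown-labelled replicate 2 to 71.5% in control replicate 2.

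The table holds 48 further rows whose symbol begins with Obox, 46 of them on chromosome 7, of which 12 could be tested. The log2 fold change was above 0 in 8 of the 12 and below 0 in 4 (median 0.18), edgeR called 0, and 0 had an unadjusted p under 0.05. Obox8, a protein-coding relative, was the most abundant at 584.5 ± 254 CPM in controls against 721 ± 247 CPM under the knockdown label, and its groups overlapped. Of the others, Obox4-ps35, annotated as a long non-coding RNA, was at 121 ± 8.13 and 147 ± 8.35 CPM. Its 4 knockdown-labelled libraries lay above all 4 controls, 1 of 12 rows against 2.98% of all genes, without passing (log2 fold change 0.29, SE 0.16, edgeR adjusted p = 1.0). Obox3-ps1, with the smallest p of these rows, was at 29.99 ± 5.27 and 42.7 ± 9.94 CPM. The 8 pseudogenes named after Obox3 together held 75.9% to 133.5% as many counts as Obox3 itself. With these 48 rows added, the Obox sum was 4664 ± 358 CPM in controls against 5002 ± 538 CPM under the knockdown label.

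Of 40 other homeobox genes of the oocyte and early embryo, 17 passed the filter on low counts, 6 with positive and 11 with negative log2 fold changes (median -0.41), edgeR called 0, and 1 had an unadjusted p under 0.05. That gene, Tgif1, a repressor of the TALE class, was at 4.53 ± 2.702 CPM in the controls and listed at 0 in all 4 knockdown-labelled libraries (edgeR, adjusted p = 1.0), so that no fold is given. Lmx1a, a LIM-homeobox gene, was at 12.1 ± 2.24 and 20.7 ± 3.51 CPM, without overlap between the groups and without passing (log2 fold change 0.77, SE 0.37). The groups did not overlap in 2 of the 17 genes, Tgif1 and Lmx1a, against 2.98% of all genes tested. Crxos, a homeobox gene named for its place opposite Crx, was the most abundant at 2093 ± 759 and 2345 ± 673 CPM.

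Transcription factors of genome activation were tested for 27 of 29 listed, with 12 positive and 15 negative log2 fold changes (median -0.05), and edgeR called 0. The Ets factor Gabpa was at 352 ± 51.5 CPM in controls against 438 ± 74.9 CPM under the knockdown label, and Yy1 at 95.8 ± 17.5 and 121 ± 19.5 CPM, both with overlapping groups. Nfyb, a subunit of the CCAAT-binding factor NF-Y, was the most abundant at 437 ± 10.2 and 400.3 ± 39.9 CPM. The 34 tested genes of the 2-cell burst, transcribed briefly at this stage, had 19 positive and 15 negative values (median 0.025) and 0 calls, with Lmx1a again among those of smallest p, Spz1 at 40.4 ± 11.7 and 24.7 ± 7.13 CPM and Gm5662 the most abundant at 890.3 ± 472 and 883 ± 348 CPM. Over all 13146 genes tested, 7018 had negative and 6128 positive values (median -0.05). Of 41 tested maternal oocyte transcripts, 31 had negative and 10 positive values (median -0.20) and edgeR called 0. Among them the oocyte factor Lhx8 was at 11.3 ± 6.88 and 2.86 ± 2.48 CPM, Nlrp2 at 15.8 ± 9.03 and 6.46 ± 6.64 CPM, and the demethylation guard Dppa3, the most abundant, at 36670 ± 3300 and 35360 ± 6566 CPM. In none of these 3 lists did a gene have an unadjusted p under 0.05. Genes of a list can vary together, and the splits by sign were not tested.

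Genes were ranked by how closely their log2 level followed the family sum over the 8 libraries. The 5432 genes ranked averaged 10 CPM or more, with the members and predicted genes (Gm-number and Rik symbols) left out. The closest were Tcl1b2 (Pearson r = 0.955), Tcl1b4 (0.953), Wee2 (0.953), Tcl1b3 (0.946) and Mdga2 (0.931). The Tcl1b genes are relatives of the Akt coactivator Tcl1 expressed in the egg, and Wee2 is an oocyte kinase that restrains Cdk1. For the sum of the maternal members they were the Mediator subunit Med27 (0.962), the ubiquitin-conjugating enzyme Ube2d3 (0.961), Tcstv3 (0.957), Rfpl4 (0.956) and Bcl2l10 (0.954), the last being an anti-apoptotic protein of the oocyte. For Obox3, which is the whole of the zygotic sum here, they were Ica1 (0.961), Syne2 (0.919), Cct7 (0.890), Ociad1 (0.889) and Ing4 (0.881). The Tcl1b2 level ran from 533 to 1412 CPM over the libraries and that of Ica1 from 14.4 to 49.2 CPM. With 8 points that share a library's depth and scaling, and with so many genes ranked, these values describe the libraries and carry no test.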

How the data were processed

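RSEM 1.2.28, STAR 2.7.3a and Trim Galore 0.6.10 are the tools named, and GRCm38 (mm10) the build, per the submitters' processing notes. The deposited values are expected counts, not normalised, and no source used here gives annotation release, strand setting, read length or filters. Counts were rounded, which altered 4.22% of values. Genes were filtered with filterByExpr by group (minimum count 10, minimum total 15), leaving 13146, scaled by TMM and compared across all genes with edgeR 4.0.16 (quasi-likelihood, robust, group only) in R 4.3.3, with Benjamini-Hochberg adjustment over all genes tested and a threshold of 0.05. Alternatives used DESeq2 1.42.0, limma 3.58.1 and other scalings, filters, depths and samples. Without molecular identifiers in the labels, intervals and floors cover the spread or counting error of reads, not of molecules.

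Gene positions and lengths are from GENCODE M21, in which 53181 of the 55487 symbols were found, all Obox rows included. All members are named, with Polq, the 2 tested genes of smallest p and the most abundant gene of each list, and the 5 genes most like each Obox sum, by Pearson correlation of log2(CPM + 1). Predicted genes, with Gm-number or Rik symbols, were left out of that correlation ranking. The members and lists were chosen with earlier results of these data known.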

Additional observations from a re-analysis of the deposited data

How the results depend on the processing

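Over the 19 alternatives, no Obox member passed in any fit (smallest adjusted p 0.732 and smallest unadjusted p 0.0538, over 114 fits of members). Obox2, Obox3 and Obox6 kept their direction in all 19, with log2 fold changes from -0.750 to -0.101, 0.068 to 0.373 and 0.084 to 0.220. Obox5, near 0, was negative with no filter (-0.036), with limma-voom (-0.018) and with knockdown-labelled replicates 1 to 3 left out together (-0.085). That last setting was chosen after seeing the data and leaves knockdown-labelled replicate 4 alone in its group. In it Polq was at 0.073, Obox7 at -0.611, Obox3 at 0.068 and the family sum at -0.035. Leaving out 1 library at a time gave log2 fold changes from -0.374 to 0.196 for Obox1, from -0.165 to 0.167 for Obox5, from -0.316 to 0.035 for Obox7, from -0.474 to -0.109 for Polq, and from -0.046 to 0.152 for the family sum. Every alternative run moved the family sum from 0.062 by less than its standard error (0.177), those of the filter being added after seeing the data. The cause was not tested. DESeq2 called 14 genes higher and 6 lower, and every other setting 0. Same-numbered libraries correlated at -0.116 to 0.0175 in their deviations from the group means, so no pairing by number was seen. So few libraries of unequal depth cannot exclude one. With the replicate block the log2 fold changes were -0.082 (Obox1), -0.502 (Obox2), 0.018 (Obox5), -0.122 (Obox7), 0.253 (Obox3), 0.160 (Obox6) and -0.377 (Polq), with 0 genes called. In the shallow libraries Obox2 had as few as 352 counts and Obox7 as few as 421, and with every library thinned to the smallest total their log2 fold changes were -0.302 and -0.039.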

Other observations

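Obox1 levels ran with those of Obox5 over the 8 libraries, while the member with which Obox1 shares most transcript sequence is Obox2. This was noticed in the data and then tested on the same data, so the p-values give no independent support. The adjustment covers the 6 relations with Obox5 alone, not every pair that could have been noticed. Among 5432 genes ranked, some outside the family followed the sum of the maternal members, which includes Obox5, about as closely (Med27 0.962, Ube2d3 0.961). An r of this size was thus also reached outside the Obox genes, though by top-ranked genes and with a sum rather than with Obox5 itself. How many genes reach it with Obox5 was not counted. On log2(CPM + 1), Obox1 against Obox5 gave Pearson r = 0.964 (2-sided exact permutation p = 0.000273 over 40320 pairings, adjusted 0.00164 over 6 relations) and Spearman rho = 0.976 (p = 0.000397, adjusted 0.00238, exact permutation). Without the 2 libraries farthest from the Obox5 median, control replicate 1 and knockdown-labelled replicate 1, r was 0.989, and it was 0.970 after centring each group on its mean. Obox2 against Obox5 gave r = 0.373 (exact permutation p = 0.367, adjusted 0.467) and rho = 0.429 (exact permutation p = 0.299, adjusted 0.392), and r was 0.756 without the same 2 libraries. The difference between these relations was not tested.

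Obox8 levels ran against those of Obox5 in these libraries. This relation too was tested on the data in which it was seen, so its p-values give no independent support. How many genes outside the family reach an r as negative with Obox5 was not counted. Control replicate 2 had an Obox5 level of 2265 CPM and the lowest Obox8 level, 361.5 CPM, while control replicate 1 had 1106 CPM of Obox5 and 947 CPM of Obox8. The Pearson r was -0.873 (exact permutation p = 0.00471, adjusted 0.0141), but Spearman rho was -0.714 (exact permutation p = 0.0576, adjusted 0.173) and did not pass. Without control replicate 1 and knockdown-labelled replicate 1, r was -0.821, and centred within groups it was -0.928. For Obox7, Obox3 and Obox6 against Obox5, r was 0.649, 0.352 and -0.197, with adjusted exact permutation p of 0.172, 0.467 and 0.666, and none of their rho values passed. Without the same 2 libraries these r values were 0.381, 0.056 and -0.529. Groups of 4 libraries are too small for a value within each.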
